A study of Mus musculus with 68 samples.

Results

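Sfmbt2, Gab1, Slc38a4, Smoc1 and Jade1 are the 5 genes described here as the class of noncanonical, H3K27me3-imprinted genes in mouse somatic cell nuclear transfer (SCNT) embryos. They were chosen by name. In every deposited gene table the entry carrying the symbol was taken, and each of the 5 symbols had 1 entry per table among 24421 reference symbols. The level used throughout is TPM, the share of a gene among the transcripts of a library, which is scaled for transcript length. The data are RNA-seq libraries made with Smart-seq2 from 68 samples. SCNT embryos were followed from donor cell to blastocyst, and fertilized blastocysts were followed after knockdown of Max or Mcrs1. Donor nuclei were cumulus cells (CC, 3 libraries). They were placed in enucleated oocytes of BDF1 mice, called B6D2F1 in the study's methods, which were activated with SrCl2 in the presence of cytochalasin B. SCNT libraries came from 6 h and 14 h post activation (6 hpa and 14 hpa), the early and late 2-cell stage (E2C and L2C), the 8-cell stage (8C), the morula, and both parts of the blastocyst, inner cell mass (ICM) and outer trophectoderm (TE), with 6 libraries each, and from the 4-cell stage (4C) with 5. Fertilized embryos were C57BL/6j by C57BL/6j zygotes given a morpholino (MO), an antisense oligonucleotide that blocks translation or splicing of its target. ICM and TE were taken from control, Max MO and Mcrs1 MO blastocysts, with 2 libraries in each of the 6 groups. The fertilized controls are labelled untreated, whereas the study's methods describe a random control morpholino. Each library came from a small pool of cells, ICM and TE were parted by micromanipulation, and no label says that replicates came from separate rounds of embryos, so the p-values measure only the spread between these libraries, which may be technical.

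In canonical imprinting, DNA methylation set in a germline keeps the allele of that parent silent. In the noncanonical form, the oocyte marks the maternal allele with H3K27me3, the histone modification of Polycomb repressive complex 2, and the embryo expresses the paternal allele. Somatic donor chromatin lacks this oocyte mark, and the class is known for biallelic expression in SCNT embryos and for roles in the placenta. The tables hold no allele information, so the imprint itself was not measured, and the values below are levels summed over both alleles. In pooled cells, fewer cells of a type and less RNA per cell cannot be told apart.

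The genes lie on 5 chromosomes of the mm10 build. Sfmbt2, which encodes a Polycomb group protein with MBT repeats and hosts a cluster of microRNAs in an intron, spans chr2:10370451-10595253 on the plus strand. Gab1, a docking adaptor that relays signals from receptor tyrosine kinases, spans chr8:80764431-80880519 on the minus strand. Slc38a4, a sodium-coupled neutral amino acid transporter of the placenta and liver, spans chr15:96994823-97055956 on the minus strand. Smoc1, a secreted calcium-binding protein of basement membranes, spans chr12:81026808-81186414 on the plus strand. Jade1, a PHD finger scaffold of the HBO1 histone acetyltransferase complex, spans chr3:41555734-41616864 on the plus strand. The Sfmbt2 entry encloses 42 other reference genes, 41 of them microRNAs and all 42 on its strand, which held TPM of their own in 42 of 68 libraries, and reads of the host and of these genes may not be separable.

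Promoter windows from RefSeq (GRCm38.p6, the same build as mm10), 250 bases before to 50 bases after a start, were found for 4 of the 5 genes, 11 windows in all. They are shown because the genes differ in how many CpG dinucleotides they hold there, the substrate of DNA methylation, and because assembled transcripts began at some of them. Each is written 5′ to 3′ on the strand of the gene, with CpG in capitals.
Sfmbt2, upstream start, chr2:10370201-10370500: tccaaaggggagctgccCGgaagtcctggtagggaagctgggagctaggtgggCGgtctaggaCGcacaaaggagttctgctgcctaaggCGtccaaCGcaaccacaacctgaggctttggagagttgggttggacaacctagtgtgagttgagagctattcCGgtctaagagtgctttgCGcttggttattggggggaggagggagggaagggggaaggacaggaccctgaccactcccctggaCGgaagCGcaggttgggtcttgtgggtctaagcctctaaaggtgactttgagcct
Sfmbt2, downstream start, chr2:10372186-10372485: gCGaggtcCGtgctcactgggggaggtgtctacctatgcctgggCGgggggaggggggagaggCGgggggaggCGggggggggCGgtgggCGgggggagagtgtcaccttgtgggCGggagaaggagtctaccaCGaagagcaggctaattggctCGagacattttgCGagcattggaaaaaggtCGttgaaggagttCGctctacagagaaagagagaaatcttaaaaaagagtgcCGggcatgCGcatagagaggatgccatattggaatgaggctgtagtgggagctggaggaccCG
Gab1, chr8:80880470-80880769: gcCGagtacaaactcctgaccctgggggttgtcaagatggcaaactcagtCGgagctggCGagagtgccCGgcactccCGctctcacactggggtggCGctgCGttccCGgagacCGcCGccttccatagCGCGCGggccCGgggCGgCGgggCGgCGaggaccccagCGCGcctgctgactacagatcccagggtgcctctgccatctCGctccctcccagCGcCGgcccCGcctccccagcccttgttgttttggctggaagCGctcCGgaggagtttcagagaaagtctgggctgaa
Slc38a4, chr15:97055907-97056206: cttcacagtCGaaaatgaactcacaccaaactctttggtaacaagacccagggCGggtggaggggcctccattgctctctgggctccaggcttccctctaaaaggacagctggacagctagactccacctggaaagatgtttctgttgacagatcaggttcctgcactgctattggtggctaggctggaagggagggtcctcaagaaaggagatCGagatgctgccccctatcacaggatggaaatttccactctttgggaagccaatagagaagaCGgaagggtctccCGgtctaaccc
Jade1, first start, chr3:41555484-41555783: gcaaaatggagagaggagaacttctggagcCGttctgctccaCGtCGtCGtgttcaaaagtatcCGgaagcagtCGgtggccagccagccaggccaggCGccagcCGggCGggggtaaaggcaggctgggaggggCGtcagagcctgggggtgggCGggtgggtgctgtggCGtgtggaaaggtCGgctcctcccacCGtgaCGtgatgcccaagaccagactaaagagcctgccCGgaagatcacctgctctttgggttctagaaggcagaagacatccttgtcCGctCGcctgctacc
Jade1, start 9146 bases downstream of the first, chr3:41564630-41564929: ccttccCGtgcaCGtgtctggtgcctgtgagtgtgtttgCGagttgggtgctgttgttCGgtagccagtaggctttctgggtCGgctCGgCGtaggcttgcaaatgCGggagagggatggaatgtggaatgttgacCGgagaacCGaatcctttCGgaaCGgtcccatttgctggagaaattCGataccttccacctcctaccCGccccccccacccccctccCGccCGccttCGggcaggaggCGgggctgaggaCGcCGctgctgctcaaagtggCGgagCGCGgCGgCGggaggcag
The Slc38a4 window held 5 CpG, below the median of 7 over all 32851 RefSeq windows of this length. The 2 Sfmbt2 windows held 9 and 16, the Gab1 window 26, and the Jade1 windows shown 18 and 25. The palindrome CACGTG, the motif known for binding of Max with its partners, was searched on both strands. It occurred in 1 of the 11 windows, the second Jade1 window shown, 240 bases before its start, and in 7.15% of all windows. Assembled loci of Sfmbt2 began at both of its windows, though most covered only a part of the gene. The most abundant Sfmbt2 locus assembled in a library began within 200 bases of the upstream start in 12 libraries and within 200 bases of the downstream start in 17, out of 59 with an assembled locus. The 12 libraries were 3 SCNT ICM, 3 SCNT TE and 6 fertilized libraries. Loci began at the downstream start also in 3 E2C, 2 L2C, 2 8C and 2 morula libraries. For Jade1 the most abundant locus began at the first start in 15 libraries, from the morula on. In no library did it begin within 200 bases of any of the other 3 RefSeq starts. By group these matched the 15 libraries, described below, in which Jade1 coverage and TPM disagreed. In the 31 other libraries at 1 TPM or more the locus spanned a median of 10.0% of the gene. Such partial loci may miss the start, so promoter use by stage was not tested.

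The libraries differed in ways that touch these genes. The deposited tables hold no counts, so depth was read as coverage per FPKM, which ranged from 1.00 to 5.17, and between 6177 and 11771 reference genes reached 1 TPM in a library. The TPM of reference genes summed to 30.4 to 94.4% of the TPM of loci assembled in the library without a reference name, the lowest share being at L2C. These loci held the full TPM total of a library and can overlap reference genes, so the sums are not parts of a whole. SCNT ICM replicates 1 to 3 held 6177 to 6771 genes at 1 TPM or more, against 9011 to 10032 in replicates 4 to 6. The E2C libraries differed between the same sets of replicates. Replicates 1 to 3 had a reference share of 59.5 to 62.9% and 10122 to 10917 genes at 1 TPM or more. Replicates 4 to 6 had 67.2 to 69.1% and 9903 to 9967 genes. Of the marker lists, the 10 TE genes summed to 2215 to 8867 TPM in SCNT ICM and 6184 to 17391 TPM in SCNT TE, and the 11 ICM genes to 267 to 868 and 103 to 362 TPM, so both ranges overlapped between the lineages. In fertilized ICM control replicate 1, labelled ICM, the TE genes summed to 17307 TPM, within the 16388 to 22223 TPM of the fertilized TE libraries, against 669 TPM in replicate 2. The 8 cumulus genes summed to 1207 to 1465 TPM in CC and to at most 3.84 TPM in SCNT morula, ICM and TE. Has2, Ptx3, Amh and Fshr were at 0 in all libraries of these SCNT groups. Amh was also at 0 in all 3 CC libraries. The 6 oocyte genes summed to 4190 to 8129 TPM at 6 hpa and to at most 11.2 TPM in SCNT morula, ICM and TE. In fertilized ICM control replicate 2 they summed to 27.8 TPM, with 4 of the 6 at 1 TPM or more. A morpholino need not change the RNA level of its target. Max, the MYC partner, was at 38.0 and 8.42 TPM in ICM controls and 6.82 and 0.443 TPM in ICM with Max MO, and Mcrs1, a chromatin complex subunit, was at 253 and 310 TPM in ICM controls and 86.8 and 73.4 TPM with Mcrs1 MO.

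The stage course of SCNT embryos asks when each gene is first transcribed and how its level moves to the blastocyst. All 5 genes were low in 6 hpa and 14 hpa embryos, and at a cut of 1 TPM 4 of them came on at L2C, the stage of the main wave of mouse zygotic genome activation. Onset was set as the first stage at which more than 50% of the libraries held at least 1 TPM. By that rule it was L2C for Sfmbt2, Gab1, Slc38a4 and Jade1, and the morula for Smoc1. The stage moved with the cut. At 0.5 TPM it was 14 hpa for Gab1 and as before for the other 4, and at 5 TPM it was L2C for Gab1, 8C for Slc38a4, the morula for Jade1 and ICM for Sfmbt2, with no stage for Smoc1. At 1 TPM, after L2C the courses parted. Gab1 stayed on at all 6 stages from L2C, Sfmbt2 was off at 4C, 8C and morula, Slc38a4 was off at 4C only, and Jade1 was off at 8C only. The 5 genes together summed to 0.340 to 2.18 TPM at 6 hpa, 18.4 to 34.1 TPM at L2C, 2.40 to 15.3 TPM at 4C and 240 to 393 TPM in ICM.

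**Figure D1:**
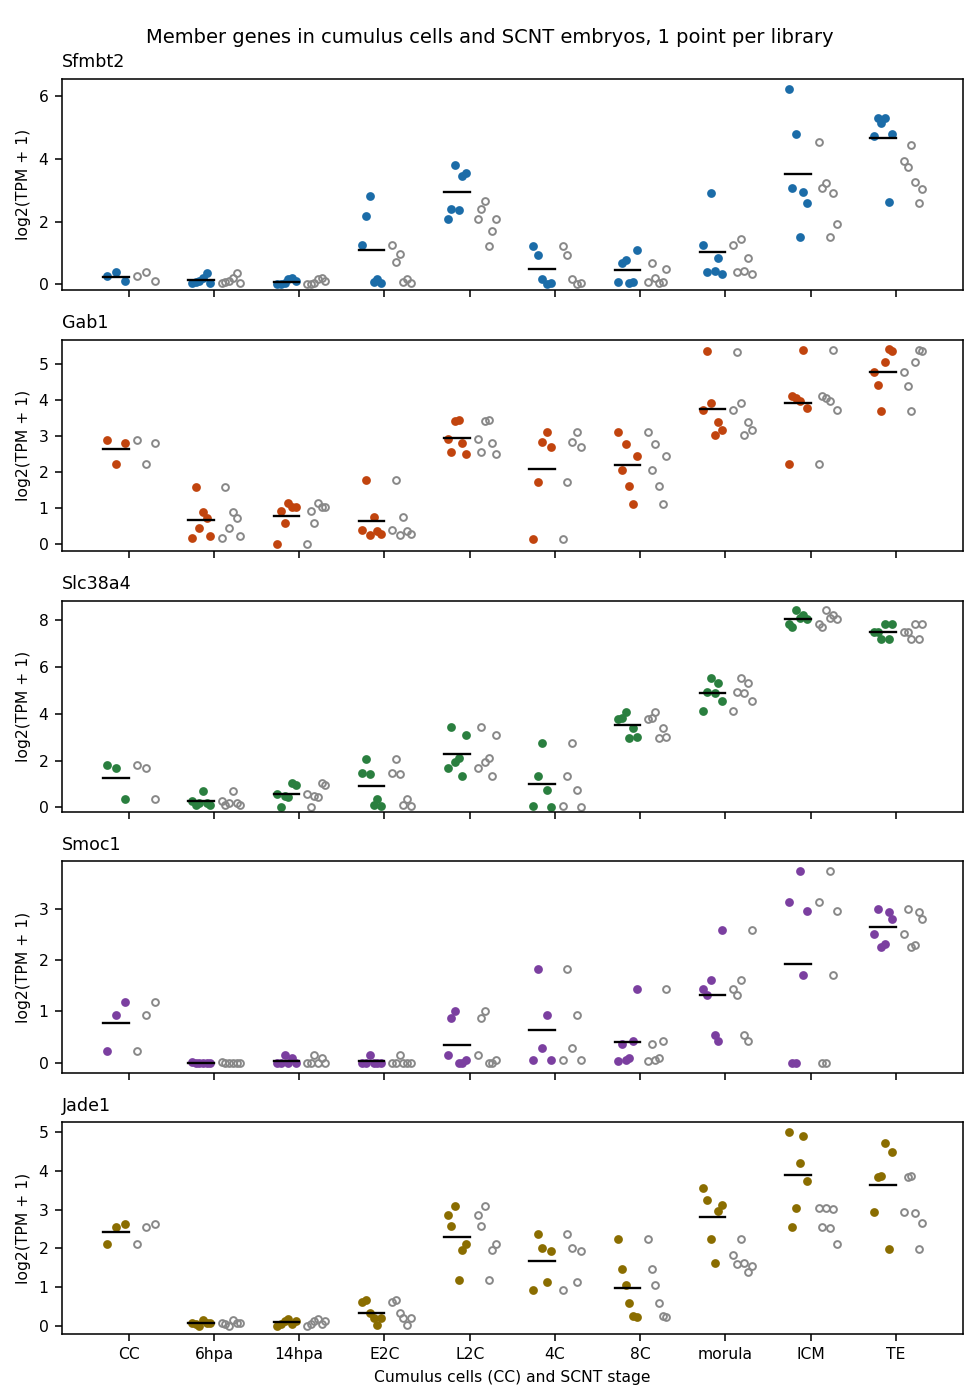
Level of each gene by stage as log2(TPM + 1), with 1 filled point per library, a bar at the group mean and open grey points for TPM rebuilt from coverage. The 6 L2C libraries of Gab1 and Jade1 lie above all 6 E2C libraries, Sfmbt2 is low again from 4C to morula, and Slc38a4 is highest in ICM and TE.

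Stage steps were tested with limma on log2(TPM + 1) over 11867 genes, and a step was called at a Benjamini-Hochberg adjusted p under 0.05 and at least 2-fold. Of 40 steps, 5 genes by 8 steps, 16 were called. No gene was called from 6 hpa to 14 hpa (11.1% of all genes called in either direction) or from 14 hpa to E2C (5.83%), and none of these 10 steps had an unadjusted p under 0.05 in limma. In replicates 1 to 3 alone Sfmbt2 rose in deposited TPM from 14 hpa to E2C, by 2.07 (adjusted p = 0.0438), against 8.72% of all genes. From E2C to L2C, 4 of 5 rose, against 23.7% of all genes. From L2C to 4C 2 of 5 fell, against 26.6%. From 4C to 8C 1 of 5 rose (11.5% of all genes), and from 8C to morula 3 of 5 rose (8.74%). From morula to ICM 3 of 5 rose (8.96%), and from morula to TE 3 of 5 rose (11%). The 3 in TE included Smoc1, whose mean reached the 1 TPM needed for testing through its late groups. In replicates 4 to 6 alone, without the 3 ICM libraries with few detected genes, all 5 rose from morula to ICM, Gab1 by 1.18 and Smoc1 by 1.62 among them, against 18.5% of all genes. In replicates 1 to 3 alone 2 of 5 rose, Sfmbt2 by 3.17 and Slc38a4 by 3.14, against 5.68% of all genes, and the differences of Gab1 and Smoc1 were -0.87 and -0.41.

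Sfmbt2 had 2 separate periods of expression, at 2-cell and at blastocyst. In the donor CC its level was 0.199, 0.297 and 0.0675 TPM, and at 6 hpa it was between 0.0235 and 0.278 TPM (median 0.0635). The E2C libraries split, with 1.36, 3.55 and 6.03 TPM in replicates 1 to 3 and 0.0603, 0.131 and 0.0177 TPM in replicates 4 to 6, and these 2 sets did not overlap. From 14 hpa to E2C it was called in deposited TPM in replicates 1 to 3 alone (2.07, adjusted p = 0.0438) and not over all 6 replicates. Computed from coverage only 1 of 6 E2C libraries reached 1 TPM, the highest being at 1.36 TPM. No coverage-based value of that step in replicates 1 to 3 is given, so the call rests on deposited TPM. At L2C it was 3.20 to 13.0 TPM (median 7.14), which overlapped the upper E2C libraries. It rose by 1.86 on the log2 scale from E2C to L2C (SE 0.52, limma with Benjamini-Hochberg adjusted p = 0.00318), and by 0.69 with adjusted p = 0.52 in replicates 1 to 3 alone. By 4C it was at 1.33, 0.898, 0.125, 0.0129 and 0.0159 TPM, below every L2C library in deposited TPM, and it fell by 2.47 on the log2 scale (SE 0.54, adjusted p = 0.000183). In the morula the lowest, median and highest libraries were at 0.251, 0.551 and 6.53 TPM. From morula to ICM it rose by 2.50 (SE 0.52, adjusted p = 0.000198) and from morula to TE by 3.63 (SE 0.52, adjusted p = 2.68e-07). Computed from coverage the E2C libraries were at 0.0177 to 1.36 TPM (median 0.383), L2C at 1.30 to 5.38 TPM (median 3.24) and the morula at 0.251 to 1.73 TPM (median 0.551), and the lowest L2C library then lay below the highest 4C library. The 4 steps kept their calls from coverage, at 1.49, -1.55, 2.08 and 2.73 (adjusted p = 0.000252, 0.000237, 2.59e-06 and 6.26e-09).

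Gab1 was present in the donor cells, low at 6 hpa, 14 hpa and E2C, and on from L2C. It was at 0.128 to 2.02 TPM at 6 hpa and 0 to 1.22 TPM at 14 hpa, where 3 of 6 libraries reached 1 TPM. Oocyte genes were high at 6 hpa, so CC and 6 hpa levels are shares of different RNA pools. CC held 6.47, 3.71 and 6.09 TPM, above all E2C libraries. Its E2C libraries were at 0.198 to 2.44 TPM (median 0.307) and its L2C libraries at 4.66 to 9.88 TPM (median 6.26), with no overlap. That step was 2.30 on the log2 scale (SE 0.43, adjusted p = 2.44e-05) and was called in all 63 alternatives run. Levels at 4C and 8C overlapped those at L2C, with 0.106, 2.29, 6.14, 7.61 and 5.45 TPM at 4C. In the morula Gab1 was at 7.18 to 40.3 TPM (median 11.0), a rise of 1.58 from 8C (SE 0.43, adjusted p = 0.00925). Without morula replicate 2, the highest library, the rise was 1.27 with adjusted p = 0.051.

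Slc38a4 rose in the most steps of the 5 genes and reached the highest level. CC held 2.50, 2.19 and 0.279 TPM. The E2C sets of replicates that split for Sfmbt2, and that differed in reference share over all genes, split here as well. Slc38a4 was at 1.81, 3.16 and 1.69 TPM in E2C replicates 1 to 3 and 0.0891, 0.272 and 0.0309 TPM in replicates 4 to 6. The L2C libraries, 1.54 to 9.99 TPM (median 3.12), overlapped the upper 3 of these, and the step was 1.37 (SE 0.37, adjusted p = 0.00221; 0.71 with adjusted p = 0.395 in replicates 1 to 3 alone). At 4C the values were 0.0323, 1.54, 5.77, 0.685 and 0.0268 TPM, a fall by 1.29 on the log2 scale (SE 0.38, adjusted p = 0.00514; fell by 0.53 with adjusted p = 0.287 after quantile normalization). It then rose at each of the next steps. From 4C to 8C, where it was at 6.80 to 15.99 TPM (median 11.0) and above every 4C library, the rise was 2.52 (SE 0.38, adjusted p = 2.59e-06). In the morula it was at 16.3 to 44.8 TPM (median 29.2), above every 8C library, a rise of 1.38 (SE 0.37, adjusted p = 0.007; 0.97 with adjusted p = 0.0731 after quantile normalization). ICM stood 3.18 above morula (SE 0.37, adjusted p = 1.93e-09) and TE 2.63 above morula (SE 0.37, adjusted p = 1.60e-07), and no ICM or TE library overlapped a morula library. From 8C on Slc38a4 was the highest of the 5 genes in every SCNT library except morula replicate 2, where Gab1 was higher.

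Smoc1 was the last of the 5 to come on. It was listed at 0 in 5 of 6 libraries at 6 hpa, 4 of 6 at 14 hpa and 5 of 6 at E2C, and CC held 0.175, 0.898 and 1.27 TPM. At L2C only 1 of 6 libraries reached 1 TPM, and the step was 0.32 (SE 0.40, adjusted p = 0.571). At 4C the values were 0.0410, 2.57, 0.221, 0.894 and 0.0314 TPM. The morula libraries were at 0.333 to 4.98 TPM (median 1.61), and 4 of 6 reached 1 TPM. From morula to TE it rose by 1.32 (SE 0.40, adjusted p = 0.0114). Mean levels were at most 0.75 TPM in SCNT groups before the morula. They were 1.84 TPM in the morula, and 4.87 and 5.36 TPM in ICM and TE. Smoc1 passed the filter of a mean of 1 TPM over the SCNT libraries through these late groups. Its rise into them is therefore not independent of the filter. From morula to ICM the difference was 0.61 (SE 0.40, adjusted p = 0.29). ICM replicates 2 and 3 listed it at 0, 2 of the 3 libraries with few detected genes.

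Jade1 was, like Gab1, present in the donor cells and came on at L2C, but unlike Gab1 it was off at 8C at the cut of 1 TPM. At 6 hpa and 14 hpa it was nearly absent, at most 0.115 and 0.139 TPM. CC held 3.34, 4.82 and 5.20 TPM, and the E2C libraries 0.0195 to 0.585 TPM (median 0.211). All 6 L2C libraries, 1.29 to 7.57 TPM (median 4.13), lay above E2C, a rise of 1.95 (SE 0.40, adjusted p = 7.65e-05) that was called in all 63 alternatives. The 4C values were 0.895, 4.19, 3.04, 1.198 and 2.81 TPM, and 8C was at 0.176 to 3.75 TPM (median 0.785), which overlapped 4C. From 8C to morula Jade1 rose by 1.82 (SE 0.40, adjusted p = 0.000915), but computed from coverage the step was 0.73 with adjusted p = 0.114. From morula to ICM it rose by 1.10 (SE 0.40, adjusted p = 0.0322), a call lost without any 1 of 5 libraries, with adjusted p = 0.075 without morula replicate 3, 0.114 without morula replicate 4, and 0.108, 0.0562 and 0.0923 without ICM replicates 1, 4 and 5. From coverage the morula libraries were at 1.61 to 3.77 TPM (median 2.04), and the step to ICM was 1.01 with adjusted p = 0.011. From morula to TE the step was 0.84 (SE 0.40, adjusted p = 0.12), and from coverage 1.33 with adjusted p = 0.000873.

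**Figure D2:**
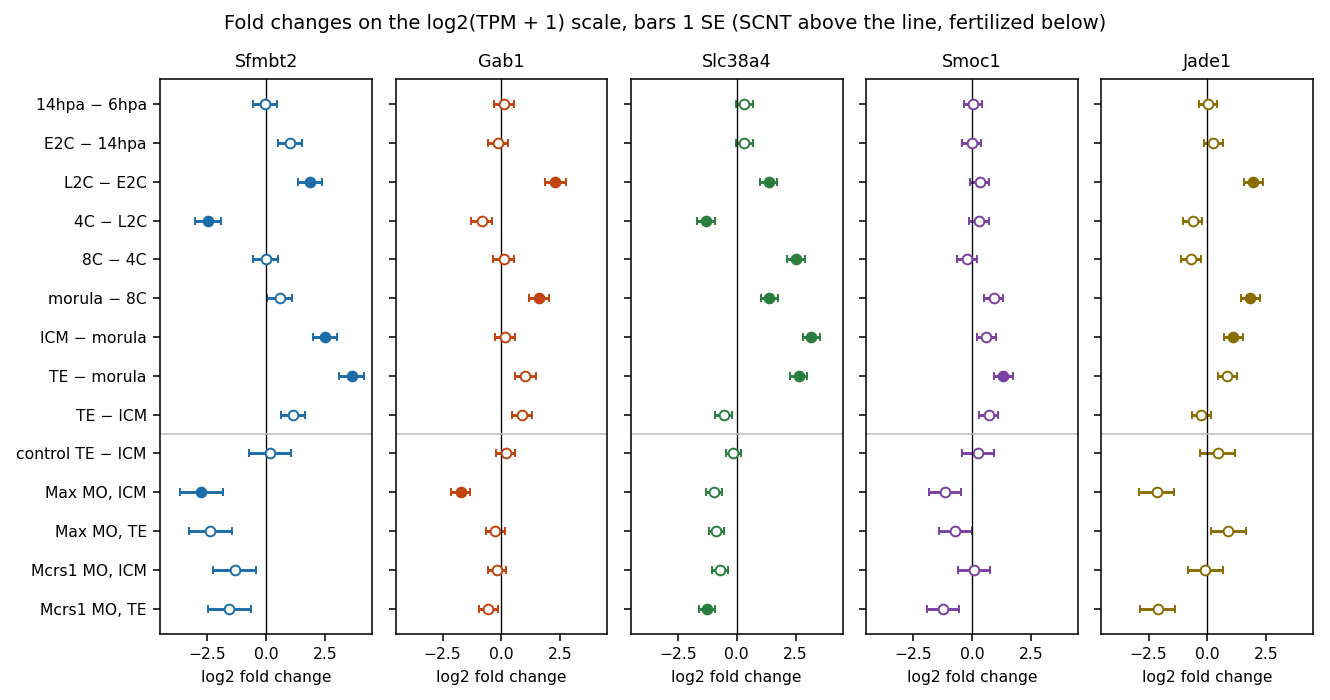
Fold change of each gene at each step or comparison on the log2(TPM + 1) scale, with bars of 1 SE and filled points for called values. SCNT comparisons stand above the line and fertilized ones below it, and all values are from deposited TPM, in which the step from morula to TE of Sfmbt2 is 3.63.

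The Sfmbt2 and Jade1 values carry a limit of the deposited tables. Coverage and TPM of an entry should keep 1 ratio within a library, and 86.6 to 95.8% of reference entries did so within 1%. Gab1, Slc38a4 and Smoc1 kept a ratio of at least 0.97 in every library. Jade1 had a coverage-based level of 0.235 to 0.25 times its deposited TPM in 15 of 67 libraries with any TPM, all from the morula on. In all 15 an assembled locus spanned the whole gene, and this held in none of the 31 other libraries at 1 TPM or more. Sfmbt2 had a coverage-based level under 0.9 of its TPM in 24 of 66 libraries, down to 0.154. The main values of these 2 genes are therefore also given from coverage. The reason for the mismatch was not tested.

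**Figure D3:**
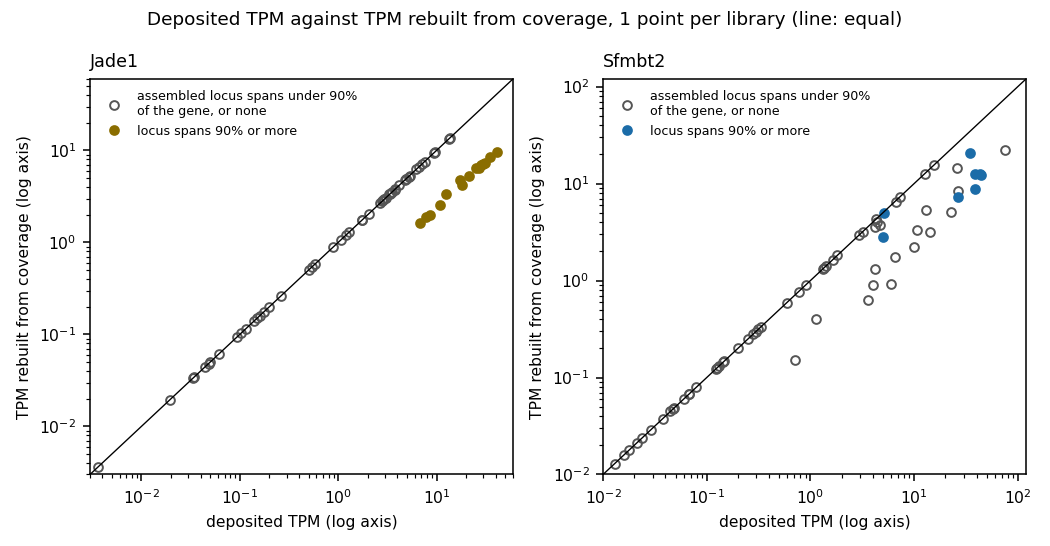
TPM rebuilt from coverage against deposited TPM for Sfmbt2 and Jade1, both on log axes, with 1 point per library and a line where they are equal. Jade1 libraries fall on the line or on a band below it, 15 of 67 being on the band, and 24 of 66 Sfmbt2 libraries lie below 0.9 of the line.

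In SCNT blastocysts none of the 5 genes was called between TE and ICM (5.34% of all genes called in either direction). Of the 5, 1, Sfmbt2, had an unadjusted p under 0.05 in limma, a looser cut for which the 5.34% is no background. Slc38a4 was at 271 TPM ± 48.4 (SD, n = 6) in ICM and 186 TPM ± 37.7 in TE. Its ICM range of 211 to 344 TPM overlapped the TE range of 146 to 232 TPM, and the TE minus ICM difference was -0.55 (SE 0.37, adjusted p = 0.482). Gab1 was at 17.4 TPM ± 12.5 in ICM (3.67 to 41.0) and 28.9 TPM ± 11.5 in TE (11.96 to 41.7), a difference of 0.87 (SE 0.43, adjusted p = 0.279). Both pairs of ranges overlapped, with Slc38a4 higher on average in ICM and Gab1 in TE. In the same comparison 3 of 8 ICM markers tested, Klf4, Nanog and Fgf4, were called lower in TE, against 1.47% of all genes. Of 10 TE markers 3, Gata2, Cdx2 and Gata3, were called higher in TE, against 3.87%. No marker of either list was called the other way.

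Sfmbt2 was at 1.82 to 75.0 TPM in SCNT ICM (median 7.004) and 5.14 to 38.8 TPM in SCNT TE (median 30.8). Computed from coverage the means were 8.21 TPM ± 7.43 and 11.4 TPM ± 5.69. The TE minus ICM difference was 1.13 (SE 0.52, adjusted p = 0.215). It depended on ICM replicate 1, the highest library, without which it was 1.68 with adjusted p = 0.0273. In replicates 4 to 6 alone it was 1.89 with adjusted p = 0.0177, and from coverage 0.64 with adjusted p = 0.294. Smoc1 was at 4.87 TPM ± 4.95 in ICM (0 to 12.3) and 5.36 TPM ± 1.40 in TE (3.77 to 6.9999), with a difference of 0.71 (SE 0.40, adjusted p = 0.356), and of -0.11 in replicates 4 to 6 alone. Jade1 was at 16.9 TPM ± 10.9 in ICM and 13.9 TPM ± 8.52 in TE, a difference of -0.26 (SE 0.40, adjusted p = 0.861). From coverage these were 5.74 TPM ± 1.65 and 8.05 TPM ± 4.39, and the difference turned to 0.32 with adjusted p = 0.696. In deposited TPM the SD within ICM was larger than the difference of the means for Sfmbt2, Gab1, Smoc1 and Jade1.

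Fertilized control blastocysts gave the same comparison in 2 libraries per lineage. None of the 5 genes was called between control TE and control ICM (2.92% of all genes), and none had an unadjusted p under 0.05 in limma. Differences ran from -0.15 for Slc38a4 to 0.45 for Jade1. Without ICM control replicate 1, the library with TE markers at the level of TE libraries, none of the 5 was called either (20.5% of all genes). The differences were then -0.68 for Sfmbt2 and 0.27 for Slc38a4, both turned in sign, 0.45 for Gab1, 0.03 for Jade1 and 1.26 for Smoc1 (adjusted p = 0.169).

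SCNT and fertilized libraries differ in experiment, strain and injection, which cannot be told apart from cloning, so their levels stand side by side with no test. Slc38a4 was at 351 and 198 TPM in fertilized ICM controls and 327 and 173 TPM in TE controls, and these ranges overlapped the SCNT ranges in both lineages. Gab1 was at 55.6 and 38.4 TPM in ICM controls, overlapping SCNT ICM through SCNT ICM replicate 5 at 41.0 TPM, while the other 5 reached 16.4 TPM. In TE controls it was at 55.9 and 49.5 TPM, above all 6 SCNT TE libraries. Smoc1 was at 13.1 and 2.48 TPM in ICM controls, again overlapping, and at 7.12 and 7.55 TPM in TE controls, above the highest SCNT TE library at 6.9999 TPM. Sfmbt2 was at 12.6 and 42.7 TPM in ICM controls and 15.4 and 44.4 TPM in TE controls, and Jade1 at 9.66 and 18.0 TPM and at 9.34 and 35.3 TPM. From coverage Sfmbt2 was at 12.6 and 12.5 TPM and at 15.4 and 12.1 TPM, and Jade1 at 9.66 and 4.26 TPM and at 9.34 and 8.47 TPM. Both genes overlapped SCNT libraries in both lineages. In ICM none of the 5 pairs of ranges was apart, against 28.8% of all genes with a mean of at least 1 TPM. In TE 2 of 5 were apart in deposited TPM, against 40.9% of all genes, so the count for the members is near the background. Those of Smoc1 overlapped with TPM rescaled over reference genes, where SCNT TE reached 8.45 TPM and the controls began at 7.95 TPM, and in assembled loci, at 16.8 and 9.01 TPM.

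**Figure D4:**
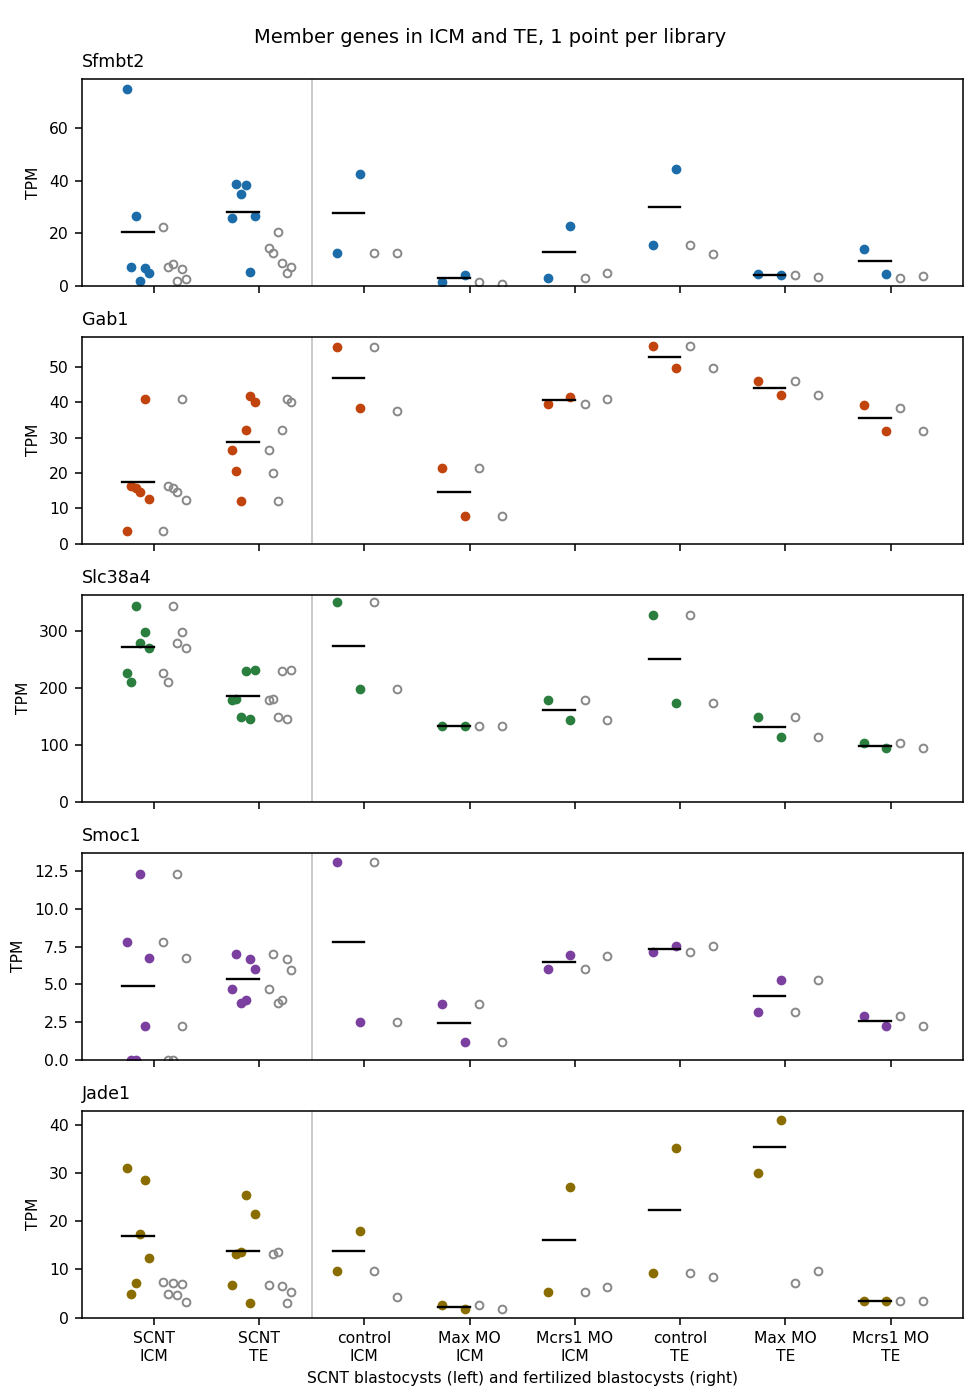
TPM of each gene in ICM and TE of SCNT blastocysts and of fertilized control, Max MO and Mcrs1 MO blastocysts, with 1 filled point per library, a bar at the mean and open grey points for TPM rebuilt from coverage. Slc38a4 stands at 94.3 to 351 TPM in every blastocyst group, and Gab1 in fertilized TE controls lies above all SCNT TE libraries.

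Max MO and Mcrs1 MO were each compared with the control libraries of the same lineage, which both share. By the study's account the control morpholino was given at a higher concentration than Max MO or Mcrs1 MO. Dose therefore differs along with target and cannot be told apart from it. The fit covered 12 fertilized libraries and 11219 genes. Of 20 responses, 5 genes by 4 comparisons, 3 were called, and all 3 were falls. With Max MO in ICM 2 of 5 genes fell, against 15.1% of all genes. Without ICM control replicate 1, the library with TE markers, Gab1, Sfmbt2 and Jade1 fell, by 1.47, 3.59 and 2.58 (adjusted p = 0.0299, 0.0197 and 0.0409), against 17.5% of all genes. With Max MO in TE none was called (2.5% of all genes in either direction). There 2 of 5 had an unadjusted p under 0.05 in limma, a looser cut for which the 2.5% is no background. With Mcrs1 MO in ICM none was called (10.1%) and 0 of 5 had an unadjusted p under 0.05. With Mcrs1 MO in TE 1 of 5 fell, against 3.31%. Lineage markers moved in the same comparisons. Of 10 ICM markers tested, 2 rose with Max MO in ICM, Sox17 and Gata4 of the primitive endoderm (6.18 and 3.23, adjusted p = 0.00609 and 0.0166), and with Mcrs1 MO in ICM the same 2 rose (4.83 and 3.43) while Fgf4 fell by 2.30. Of 10 TE markers 1 fell in each of the 4 comparisons, Tfap2c (-2.03 and -1.95 in ICM and -1.72 and -1.70 in TE, with Max MO and Mcrs1 MO). The TE genes summed to 2953 to 6310 TPM in ICM with Max MO and 8869 to 12499 TPM in ICM with Mcrs1 MO, and the ICM genes to 1239 to 1317 and 512 to 1066 TPM, against 1435 to 1922 TPM in ICM controls. The part of these markers in the results was not tested.

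Gab1 was at 21.4 and 7.99 TPM in ICM with Max MO, below both ICM controls. It fell by 1.73 on the log2 scale (SE 0.40, limma with Benjamini-Hochberg adjusted p = 0.0106), and by 1.07 with adjusted p = 0.0649 without Max MO replicate 2. In TE with Max MO it was at 45.9 and 42.1 TPM, and with Mcrs1 MO at 39.4 and 41.6 TPM in ICM and 39.2 and 31.9 TPM in TE. The 3 differences from controls were -0.25, -0.19 and -0.56, and none was called.

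Sfmbt2 was lower in all 8 morpholino libraries than in the 4 controls when computed from coverage, and overlapped them in deposited TPM. From coverage the ICM controls were at 12.6 and 12.5 TPM, Max MO at 1.63 and 0.892 TPM and Mcrs1 MO at 2.93 and 5.09 TPM. The TE controls were at 15.4 and 12.1 TPM, Max MO at 4.02 and 3.55 TPM and Mcrs1 MO at 3.16 and 3.72 TPM. Deposited TPM in Mcrs1 MO ICM was 2.93 and 22.7 and in Mcrs1 MO TE 14.1 and 4.68. With Max MO in ICM the deposited values of 1.63 and 4.02 TPM gave a fall by 2.75 on the log2 scale (SE 0.91, adjusted p = 0.0446). That call was lost in 12 of 21 alternatives and kept from coverage, where the fall was by 2.60 with adjusted p = 0.00316. Without Max MO replicate 1 or 2 the adjusted p was 0.204 or 0.0872, and without ICM control replicate 2 it was 0.157. In TE with Max MO it was at 4.34 and 4.23 TPM, a difference of -2.37 (SE 0.91, adjusted p = 0.171). With Mcrs1 MO in TE the coverage-based difference was -1.73 with adjusted p = 0.0494.

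Slc38a4 was below both controls in each of the 4 morpholino groups. It was at 134 and 133 TPM in ICM with Max MO, 179 and 143 TPM in ICM with Mcrs1 MO, and 149 and 114 TPM in TE with Max MO. In TE with Mcrs1 MO it was at 103 and 94.3 TPM, a fall by 1.27 (SE 0.33, adjusted p = 0.0479). This call was lost in 12 of 21 alternatives, with an adjusted p of 0.283 without TE control replicate 1 and of 0.184 and 0.245 without Mcrs1 MO replicates 1 and 2. In ICM with Max MO the difference was -0.98 (SE 0.33, adjusted p = 0.0495), just under 2-fold and so not called, and -1.39 with adjusted p = 0.00844 without ICM control replicate 2 and -0.56 with adjusted p = 0.209 without replicate 1.

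Smoc1 and Jade1 passed no call. Smoc1 was at 3.66 and 1.17 TPM in ICM with Max MO, 6.00 and 6.91 TPM in ICM with Mcrs1 MO, 3.14 and 5.29 TPM in TE with Max MO and 2.87 and 2.22 TPM in TE with Mcrs1 MO. The 2 TE groups lay below the TE controls, with differences of -0.71 (SE 0.69, adjusted p = 0.618) and -1.24 (SE 0.69, adjusted p = 0.295). Without ICM control replicate 2 the Max MO difference in ICM was called, at -2.15 with adjusted p = 0.0225, against -1.14 with adjusted p = 0.242 over all libraries and -0.13 with adjusted p = 0.895 without ICM control replicate 1. Jade1 was at 2.69 and 1.76 TPM in ICM with Max MO, below both controls, with a difference of -2.16 (SE 0.74, adjusted p = 0.0521). It was called in 9 of 21 alternatives. From coverage the difference was -1.23 with adjusted p = 0.0821. In TE with Max MO Jade1 was at 30.0 and 41.1 TPM, or 7.10 and 9.66 TPM from coverage, which overlapped the controls. In TE with Mcrs1 MO it was at 3.45 and 3.51 TPM on both scales, below both controls, with a difference of -2.11 (SE 0.74, adjusted p = 0.111).

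Whether a morpholino acted differently in TE and ICM was tested as an interaction for each gene. None of the 10 interactions was called, as for all genes (0% for Max MO and 0% for Mcrs1 MO), while 1473 and 972 of 11219 genes had an unadjusted p under 0.05 in limma. Among the 5 genes, Jade1 and Gab1 had an unadjusted p of 0.0145 and 0.0243 for Max MO, with differences between lineages of 3.06 and 1.48 on the log2 scale. From coverage these were 1.14 and 1.46.

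The order of the 16 group means differed between the genes. Slc38a4 ran from 0.214 TPM on average at 6 hpa to 274 TPM in fertilized ICM controls, and 4 of its 15 pairs of neighbours in the order of group means did not overlap. The same number was 2 for Gab1 and Smoc1, 1 for Sfmbt2 and 0 for Jade1. From coverage it was 0 for Sfmbt2 and unchanged for the others. For Gab1, Smoc1 and Sfmbt2 all such pairs were fertilized groups of 2 libraries each, whose ranges separate easily. No share over all genes is given, so these counts only describe the order. For Slc38a4 the separated neighbours included the step from the lowest blastocyst group, TE with Mcrs1 MO, down to SCNT morula. The genes whose group means over CC and the 9 SCNT stages (10 groups, log2 scale, 12083 genes) ran closest were Gm12171, Rab15 and Arl14 for Sfmbt2 (Pearson r 0.979, 0.966 and 0.961), Mccc2, Crlf3 and Decr2 for Gab1 (0.981, 0.970 and 0.970), and Ckmt1 and Hip1 for Slc38a4 (0.988 and 0.983). They were Tuft1, Fbxo44 and Gsn for Smoc1 (0.984, 0.982 and 0.981) and 6820431F20Rik, Gm13139 and Ralb for Jade1 (0.979, 0.972 and 0.970). Between the 5 genes themselves r ran from 0.76 to 0.96, the highest being Gab1 with Jade1. These are descriptions over group means that share libraries and depth.

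The start of the assembled Slc38a4 transcript differed between stages. In 29 libraries the most abundant locus assembled over the gene began 4.18 to 4.79 kb upstream of the annotated start (median 4.65 kb). These were 1 of 6 libraries at 8C, 6 of 6 in morula, 5 of 6 in SCNT ICM, 6 of 6 in SCNT TE and 11 of 12 fertilized libraries, and none in CC or any stage before 8C. The 2 blastocyst libraries without it were SCNT ICM replicate 2, with 211 TPM, and fertilized ICM control replicate 2, with 198 TPM. No GENCODE vM21 transcript starts within 1 kb of this position and no other annotated gene lies within 20 kb upstream. At the annotated start, whose window is printed above, the leading locus began within 200 bases in 6 libraries, 2 of them at L2C, 2 at 8C, 1 in SCNT ICM and 1 in fertilized ICM control. No locus was assembled over the gene in any 6 hpa library, and its level before 8C was at most 9.99 TPM. The part of expression level in where the assembled locus began was not tested.

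**Figure D5:**
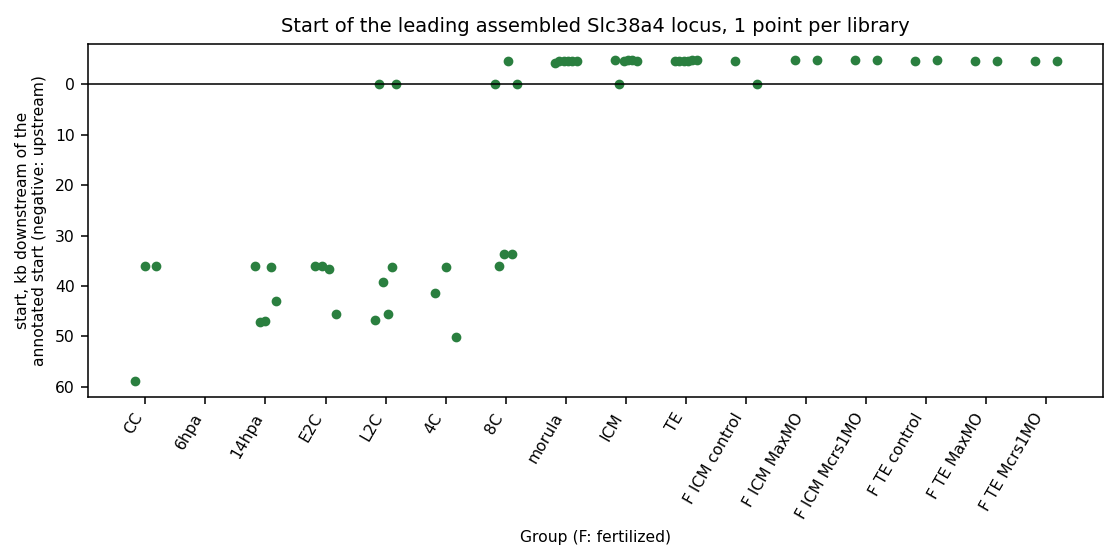
Start of the most abundant assembled Slc38a4 locus relative to the annotated start, in kb, with 1 point per library and groups along the x axis (F, fertilized). From the morula on nearly all points sit 4.18 to 4.79 kb upstream, and no CC, 6 hpa, 14 hpa, E2C, L2C or 4C library does.

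The most abundant loci of other members also began at recurrent positions, but many covered only a part of the gene. At 1 TPM or more the locus spanned a median of 30.9% of Gab1 and 50.3% of Smoc1. For Jade1 it spanned a median of 10.0% in the 31 libraries where coverage matched TPM. A partial locus that begins inside a gene need not mark a start of transcription. Smoc1 loci began 6.64 to 7.38 kb upstream in 6 libraries, 3 of them SCNT ICM, and 77.8 to 77.9 kb inside the gene in 11. Gab1 loci began 20.9 to 21.3 kb inside the gene in 11 libraries and 80.1 to 80.3 kb inside in 14. Jade1 loci began at the first start in 15 libraries and 57.4 to 59.2 kb inside the gene, which is 61131 bases long, in 19.

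Related genes gave a background for these levels. Of 8 paralogs, 7 were tested in SCNT libraries, and from E2C to L2C 2 rose and 2 fell, among them Jade3 (2.90, SE 0.52, adjusted p = 8.87e-06) and the amino acid transporter Slc38a2 (2.42, SE 0.65, adjusted p = 0.00236). The median of the paralogs at that step was 0.14, of the 5 members 1.86 and of all genes 0.26. Of 10 other genes described for this class, 9 were tested, and Xist, the RNA that silences the X chromosome, and Etv6 rose at the same step (1.49 and 1.24), with 0 falling. Of 8 enzymes and subunits that add or remove H3K27 methylation, the demethylases Kdm6a and Kdm6b among them, 2 fell. The 2 were Eed and Ezh2 (-1.56 and -1.28), and 11.2% of all genes fell. Of 7 genes of DNA methylation and linked repressors 2 rose. From morula to TE 2 of 7 paralogs rose, Slc38a1 (1.30) and Gab2 (1.19), while the median was 1.19 for the paralogs and -0.03 for all genes.

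In the fertilized groups genes of all 4 lists fell in some comparisons. The share of all genes that fell was 15.1% with Max MO and 5.21% with Mcrs1 MO in ICM, and 1.45% and 3.31% in TE. The list of 8 genes of H3K27 methylation includes Kdm6a and Kdm6b, demethylases that remove the mark. Of these 8, 6 fell with Max MO in ICM, led by Aebp2, Kdm6a and Suz12 (-2.55, -2.48 and -2.11). The list median was -1.82 against -0.21 for all genes. With Mcrs1 MO in ICM 4 of 8 fell, with Max MO in TE 3 of 8 and with Mcrs1 MO in TE 2 of 8, and none rose. The demethylase Kdm6b was among the falls in each of these comparisons. Of the 10 other genes of the class 3, 2, 2 and 3 fell in the same order of comparisons, and Xist fell in all 4 (by 2.64, 2.62, 2.80 and 2.44). Its level also follows the sex of the embryos, which was not tested. Of the 7 DNA methylation genes 3, 1, 0 and 1 fell. Of 4 paralogs tested, 1 fell with Max MO in ICM, Jade3 (-2.34), and none in the other 3 comparisons.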

How the data were processed

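RNA-seq (Smart-seq2) of 3 CC, 53 SCNT and 12 fertilized libraries was used. The authors trimmed and aligned the reads to mm10 and quantified genes, and the submitters' processing notes name cutadapt 1.16, HISAT2, StringTie, Cufflinks and deepTools. The authors deposited 1 gene table per library with TPM, FPKM and coverage and no counts. TPM, which sums to its full total over loci assembled without a reference name and gives reference genes on the same scale, was treated as a normalized signal. Deposited FPKM and coverage served to read depth, to check that entries of a library kept their ratio and to rebuild TPM from coverage. Without counts a count test could not be used, and no counting interval is given. Columns of other series numbered 0.

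Groups came from the labels. Levels were tested on log2(TPM + 1), a scale that understates changes of low genes, with limma 3.58.1 in R 4.3.3 (lmFit, contrasts.fit, eBayes with trend) on genes with a mean of at least 1 TPM, 1 fit over 53 SCNT libraries in 9 groups and 1 over 12 fertilized libraries in 6 groups. The scripts were tested on simulated data. The 5 genes were named in every group, with the 3 genes most correlated to each (1 of those for Slc38a4 is not reported here) and at most 3 called genes of a list. Lists were paralogs, other genes of the class, H3K27 and DNA methylation genes, and ICM, TE, cumulus and oocyte markers. Genes and lists were chosen with earlier results of these data known. The alternatives were the pseudocount (0.1), low-value filters, scaling, replicate block, replicates 1 to 3 or 4 to 6 alone and each library left out, and TPM rebuilt from coverage was added after seeing the data.

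Same-numbered libraries were checked for shared deviations from group means. Every pair correlated above 0.1 for 14 hpa with 6 hpa (0.142 to 0.39) and for TE with ICM (0.131 to 0.30), and for the 2 pairs of fertilized control TE with ICM (both 0.128), and not for the other comparisons. The labels do not say what a number shares.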

Additional observations from a re-analysis of the deposited data

Results flagged for a closer look

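Of 45 combinations of a gene and a group with 5 or 6 SCNT libraries, 11 held 1 library far from the others by Dixon's criterion. Chance gives about 1 in 20 for normally distributed values. TPM cannot fall below 0 and need not be normal, so the 11 are not shown to exceed chance. All 11 were the highest library. For Sfmbt2 these were morula replicate 3 at 6.53 TPM (the others reached 1.41 TPM) and ICM replicate 1 at 75.0 TPM (the others reached 26.7 TPM), which were 1.73 and 22.4 TPM when computed from coverage. Gab1 stood apart in E2C replicate 2 at 2.44 TPM, morula replicate 2 at 40.3 TPM and ICM replicate 5 at 41.0 TPM. Slc38a4 did so in 6 hpa replicate 4 at 0.637 TPM and 4C replicate 3 at 5.77 TPM. Smoc1 did so in 6 hpa replicate 1 at 0.0113 TPM, E2C replicate 3 at 0.110 TPM, 8C replicate 6 at 1.69 TPM and morula replicate 6 at 4.98 TPM. At 6 hpa and E2C the other 5 libraries listed it at 0, where any level above 0 meets the criterion.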

How the results depend on the processing

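The 16 called SCNT steps became 9 in replicates 1 to 3 alone, 8 of the 16 and, as a new call in deposited TPM, Sfmbt2 from 14 hpa to E2C. The 8 lost were Sfmbt2 and Slc38a4 from E2C to L2C (adjusted p = 0.520 and 0.395), Slc38a4 from L2C to 4C (0.205), Gab1, Slc38a4 and Jade1 from 8C to morula (0.128, 0.321 and 0.108), Jade1 from morula to ICM (0.533) and Smoc1 from morula to TE (0.183). Replicates 4 to 6 alone kept the 16 and added 4, and the other alternatives run stayed within 1.5 times of 16. TE against ICM in SCNT blastocysts went from 0 called genes to 1 in replicates 4 to 6 alone, and from 0 to 1 when a library was left out. The 3 called morpholino responses became 1 with no filter on low values and 5 with TPM rescaled over reference genes, and 0 to 5 when a library was left out. Differences of uncalled genes that changed sign were Smoc1 TE against ICM, -0.11 in replicates 4 to 6 alone, and Jade1 TE against ICM, 0.32 from coverage, 0.020 in replicates 1 to 3 alone and -0.53 to 0.071 when a library was left out. With the replicate block 1 further member call appeared, Jade1 with Max MO in ICM at adjusted p = 0.0323, and counts over all genes moved by 0.743 to 1.24 times. The cause of these changes was not tested.

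The number of 9 SCNT stages at which a gene was on moved with the cut, as did the first such stage. At 0.5 TPM it was 7 for Gab1, 6 for Slc38a4 and 6 for Jade1. At 5 TPM it was 2 for Sfmbt2, 5 for Gab1, 4 for Slc38a4, 0 for Smoc1 and 3 for Jade1. Mean levels moved beyond 1 SD with assembled loci in place of reference entries (Sfmbt2 71.1 TPM in ICM and 80.4 TPM in TE, Smoc1 7.69 TPM in TE, Jade1 37.3 TPM in ICM and 36.0 TPM in TE), from coverage (Sfmbt2 11.4 TPM in TE, Jade1 5.74 TPM in ICM) and with rescaling (Slc38a4 326 TPM in ICM).

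Scaling moved the median of all genes by 0.28 from E2C to L2C with rescaling, by -0.28 with quantile normalization, and by 0.42 from L2C to 4C with quantile normalization. Calls that rose were 67.9% of all calls from E2C to L2C, and 79.0% and 48.1% under these scalings. The same share moved from 55.4 to 67.1% (6 to 14 hpa) and from 58.4 to 31.8% (4C to 8C) with rescaling. With quantile normalization it moved from 30.8 to 51.8% (L2C to 4C), 71.5 to 48.2% (8C to morula), 37.4 to 47.7% (morula to ICM), 72.4 to 53.5% (TE against ICM), 36.5 to 52.6% (Max MO, ICM), 41.8 to 52.6% (Max MO, TE) and 34.9 to 52.6% (Mcrs1 MO, TE). With quantile normalization Slc38a4 lost its calls from E2C to L2C (0.90, adjusted p = 0.0417), from L2C to 4C and from 8C to morula.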
